A study of Mus musculus with 6 samples.

Results

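Cells release ATP when they are activated or damaged, and enzymes on the cell surface cut it stepwise to adenosine, a nucleoside that restrains T cells. CD39, encoded by Entpd1, removes phosphates from ATP and ADP, and CD73, encoded by Nt5e, turns the resulting AMP into adenosine. Adenosine signals through receptors such as the A2A receptor (Adora2a), which raises cAMP in T cells, or enters the cell through nucleoside transporters, where adenosine deaminase (Ada) converts it to inosine. Extracellular ATP itself opens the P2X7 channel (P2rx7), through which T cells can shed surface proteins or die. The 9 genes examined here cover these steps: the transporters Slc28a2, Gm14085, Slc29a1 and Slc29a3, the enzymes Entpd1, Nt5e and Ada, and the receptors Adora2a and P2rx7.

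The genes were chosen by name with their read counts and fold changes in these libraries already known, and all 9 were found among the 29393 genes of the count table. Their fold changes are therefore a description, and nothing is supported by how many of them changed. The cells were double negative T cells (cDNT) of C57BL/6 mice (CD45.1-positive donors in the methods of the study), which the study made from CD4+CD25- T cells of spleen and lymph nodes, cultured for several days beside mature dendritic cells with IL-2 and then sorted. Libraries were made 24 h after the addition of 50 ng/ml IL-10 (W/ IL-10, 3 libraries) or without it (W/O IL-10, 3 libraries). The methods of the study add anti-CD3/CD28 antibodies to the stimulation, which the sample labels do not mention, and whether the control cells received them is not stated. Nothing in the labels says that the libraries came from separate cultures or mice, so p-values measure only the spread between these libraries.

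Total counts were 21619420 to 23967088 per library, and 3 counts corresponded to 0.123 to 0.146 CPM (counts relative to the TMM-scaled size of the library), which covers counting error only. Replicate 1 of both groups stood apart: the chi-square per degree of freedom between libraries of a group was 32.5 to 44.1 for pairs with replicate 1 and 9.19 to 10.6 for the other pairs. Genes count as called where the fold change reached 1.5 and the adjusted p was under 0.05 in edgeR's quasi-likelihood test over all 14916 tested genes. The 6 T cell markers summed to 1290 to 1775 CPM, and Cd4 had 8 to 38 counts per library. Trdc, a gene of the gamma delta T cell receptor, had 59.9 to 63.3 CPM W/O IL-10 and 79.3 to 90.0 CPM W/ IL-10. Its fold change was under 1.5 (log2 fold change 0.43, adjusted p = 0.0282, edgeR). The part of Trdc in the results that follow was not tested. Cd8a, which the label double negative would leave out, was present in every library, at 95.8 to 119 CPM W/O IL-10 and 139 to 169 CPM W/ IL-10 (log2 fold change 0.56, adjusted p = 0.0369, edgeR), a fold change under 1.5. Cd8b1 was called higher W/ IL-10, with a mean of 38.1 CPM in the controls and 60.8 CPM with IL-10 (log2 fold change 0.67, adjusted p = 0.0306, same test), and the part of these coreceptor genes in the results that follow was not tested. Fold changes (W/ IL-10 against W/O IL-10) varied with GC content, from a median log2 of 0.22 for genes of up to 42% GC to -0.11 for those above 58% GC.

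Of the 9 genes 1 was called, which is 11.1% against 1.45% of all tested genes. It was Gm14085, which was lower W/ IL-10. In 5 of the 9 genes the CPM of the groups did not overlap, against 22.6% of all tested genes. Gm14085, Slc29a1 and P2rx7 were lower in every W/ IL-10 library, and Entpd1 and Ada were higher in every one. Since this comparison was known when the genes were picked, no more can be read from these shares. The median log2 fold change was 0.09 over the 9 genes and 0.0063 over all tested genes.

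**Figure D1:**
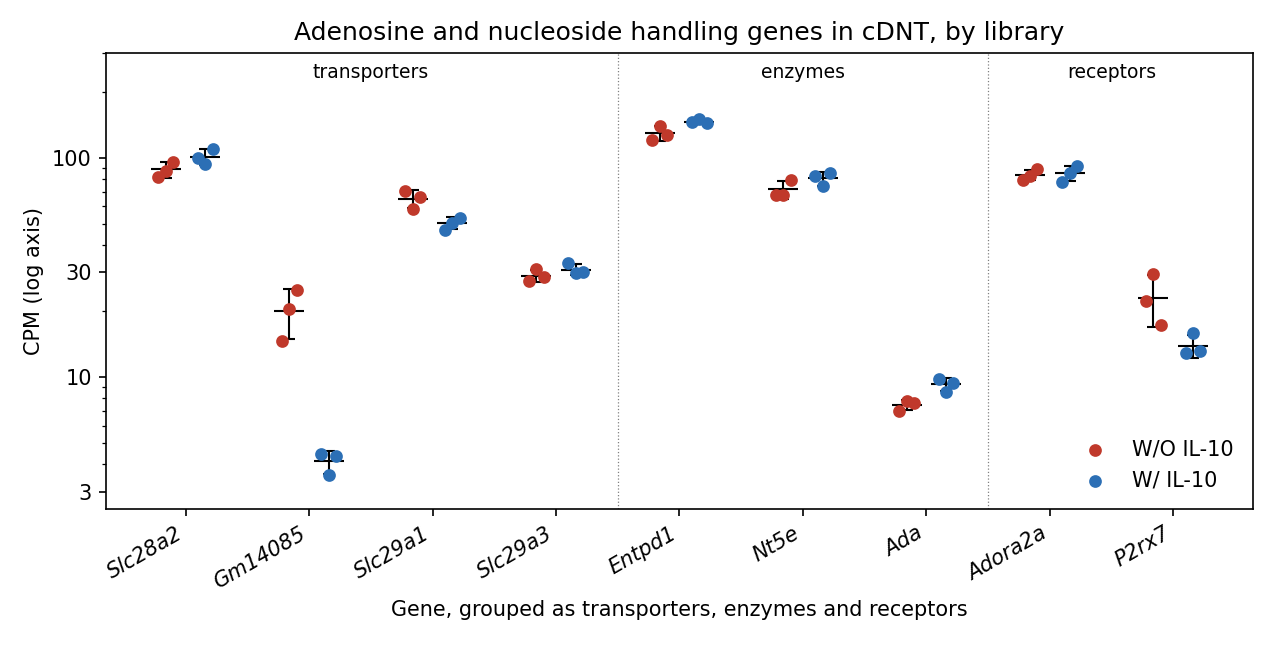
CPM of the 9 genes in each library on a log axis, with W/O IL-10 in red and W/ IL-10 in blue; black bars give the mean and SD of 3 libraries. Gm14085 stood at 14.6 to 24.9 CPM W/O IL-10 and at 3.55 to 4.47 CPM W/ IL-10, and the other genes differed less between the groups.

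Slc28a2 encodes CNT2, a transporter that carries purine nucleosides and uridine into the cell together with sodium, and Gm14085 is its close relative, which RefSeq names Slc28a2b. Slc28a2 (ENSMUSG00000027219) lies on the plus strand of chromosome 2 of GRCm38, from 122426477 to 122461137, and Gm14085 (ENSMUSG00000079071) follows it from 122484941 to 122528040 on the same strand. The gap is 23803 bases and holds 1 annotated gene, the pseudogene Bambi-ps1. Both coding sequences have 1980 bases and differ at 108 of these positions, so that they are 94.55% identical. The translated proteins share 604 of 660 residues. Identical runs of at least 50 bases make up 65.1% of the coding bases, the longest with 192 bases, and a read that lies wholly in such a run has no base by which it could be given to either gene. Over whole transcripts, 35.4% of the 50-base stretches of Slc28a2 and 30.3% of those of Gm14085 occur in the other gene.

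The 100 coding bases in which the genes differ most, from coding base 384 to 483, are shown because reads over them can be told apart. They come from exons 6 and 7 of 19 of Slc28a2 (chr2:122447885-122449793) and from exons 5 and 6 of 18 of Gm14085 (chr2:122494332-122514397) in GENCODE M21. Capitals mark the 40 positions that differ.
Slc28a2: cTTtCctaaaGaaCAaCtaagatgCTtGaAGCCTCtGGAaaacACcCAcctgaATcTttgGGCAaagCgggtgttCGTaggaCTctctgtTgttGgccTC
Gm14085: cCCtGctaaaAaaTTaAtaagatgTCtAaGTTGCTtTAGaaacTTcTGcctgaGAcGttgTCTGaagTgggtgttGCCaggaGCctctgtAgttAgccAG

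Gm14085 had 358, 492 and 577 counts in replicates 1, 2 and 3 without IL-10, and 92, 80 and 99 counts in those with it. On the CPM scale this was 14.6, 20.4 and 24.9 W/O IL-10 and 4.47, 3.55 and 4.34 W/ IL-10, and the groups lay far apart. The mean went from 19.9 ± 5.13 to 4.12 ± 0.496 CPM (SD, n = 3), which is 4.84-fold lower W/ IL-10. The log2 fold change was -2.28 (standard error 0.21, 95% confidence interval -2.75 to -1.80, adjusted p = 0.00163, edgeR), and 9 of the 14916 tested genes had a lower one. With any single library left out the log2 fold change of Gm14085 lay between -2.47 and -2.10, and the gene was called each time. Without replicate 1 of both groups it was -2.52 (adjusted p = 9.91e-07, edgeR).

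Slc28a2 had 81.8, 87.1 and 96.0 CPM in the W/O IL-10 libraries and 99.9, 93.0 and 110 CPM in the W/ IL-10 libraries. These ranges overlap. Its log2 fold change was 0.19 (standard error 0.09, 95% confidence interval -0.01 to 0.39, adjusted p = 0.370, edgeR), so that its close relative was lower W/ IL-10 while Slc28a2 was not called in either direction.

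The reads of the pair were therefore split differently in the groups. For every 100 reads on Slc28a2, the W/O IL-10 libraries held 17.9, 23.4 and 25.9 reads on Gm14085 and the W/ IL-10 libraries 4.47, 3.82 and 3.96. Of the reads of the pair, Gm14085 took 18.2 ± 2.76% W/O IL-10 but 3.92 ± 0.317% after IL-10 (SD, n = 3). The sum of both genes was 96.4, 108 and 121 CPM W/O IL-10 and 104, 96.6 and 114 CPM W/ IL-10. Fitted as 1 feature, the sum had a log2 fold change of -0.044 (95% confidence interval -0.27 to 0.18, adjusted p = 0.879, edgeR). Gm14085 held too small a share of the pair's reads W/O IL-10 for its loss alone to bring the sum to a call. The mean of Gm14085 was lower by 15.8 CPM and the mean of Slc28a2 higher by 12.6 CPM. The sources used here do not state how reads that match both genes were counted, and its part in the result was not tested.

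**Figure D2:**
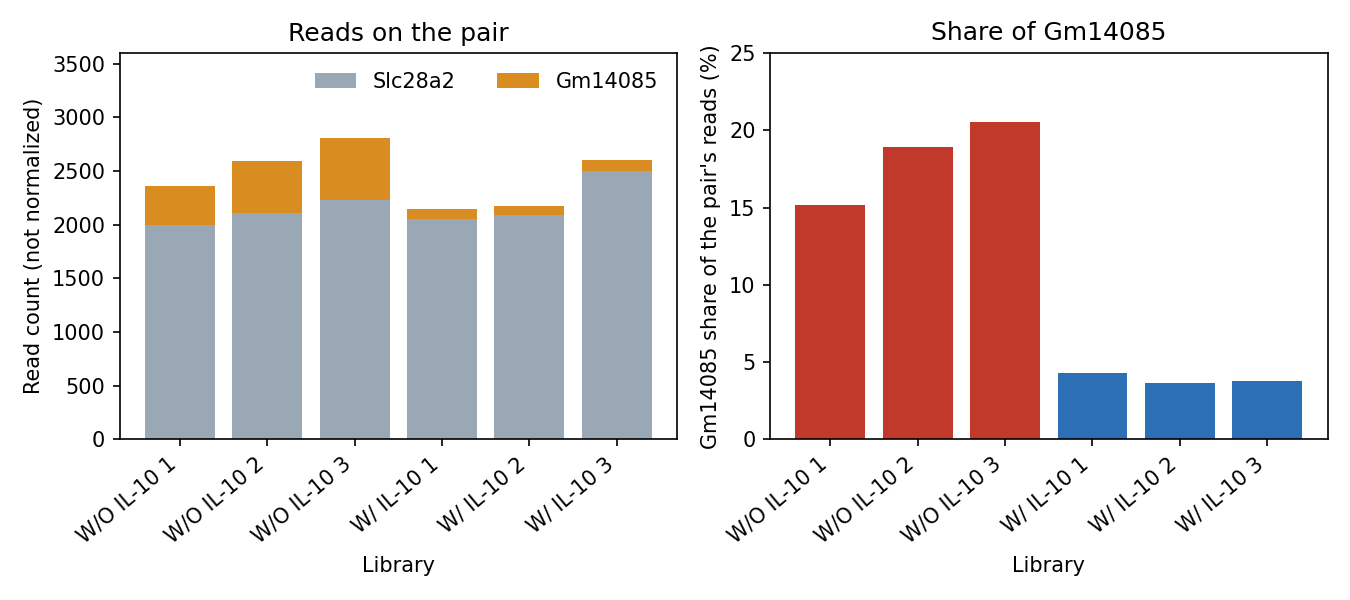
Left, deposited read counts on Slc28a2 (grey) and Gm14085 (orange), stacked per library; right, the percent of the pair's reads that lie on Gm14085, in red W/O IL-10 and in blue W/ IL-10. The share was 15.2 to 20.6% in the W/O IL-10 libraries and 3.68 to 4.28% in the W/ IL-10 libraries, while the stacked totals of the groups overlapped.

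The sequences before the starts of these genes are shown because IL-10 acts on T cells mainly through the transcription factor STAT3, whose family binds the motif TTCNNNGAA. The motif reads the same on both strands, and 7.02% of the 32851 RefSeq promoter windows (GRCm38.p6) hold it in the 250 bases before the start. It is present in the window of Slc28a2 and absent from that of Gm14085. The 172 bases before the start of each RefSeq gene follow, with the motif in capitals, on the plus strand at chr2:122426185-122426356 for Slc28a2 and chr2:122484769-122484940 for Gm14085. The annotated starts of Slc28a2 differ: its RefSeq gene begins at 122426357, its promoter window is set on a start at 122426435 and the GENCODE gene given above begins at 122426477, whereas for Gm14085 all lie at 122484941. The stretches therefore do not stand at the same distance from the start used for the window.
Slc28a2: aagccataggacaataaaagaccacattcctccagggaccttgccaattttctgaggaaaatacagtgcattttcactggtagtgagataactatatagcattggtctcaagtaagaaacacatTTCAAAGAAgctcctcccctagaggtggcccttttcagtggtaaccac
Gm14085: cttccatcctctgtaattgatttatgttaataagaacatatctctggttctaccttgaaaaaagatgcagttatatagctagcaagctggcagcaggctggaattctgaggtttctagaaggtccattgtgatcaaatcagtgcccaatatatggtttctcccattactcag
A match is a description of the letters and does not show that a factor binds there. Of the 8 genes with a window, Ada also held the motif, whereas the windows of Slc29a1, Slc29a3, Entpd1, Nt5e and P2rx7 did not. Adora2a had no window.

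Slc29a1 encodes ENT1, the main equilibrative nucleoside transporter of the plasma membrane, which lets adenosine move along its gradient. The gene (ENSMUSG00000023942, chromosome 17, 45585200 to 45599606, minus strand) had 70.3, 58.1 and 66.5 CPM W/O IL-10 and 47.0, 50.5 and 53.2 CPM W/ IL-10. Every W/ IL-10 library was below every W/O IL-10 library, and the nearest values were 58.1 and 53.2 CPM. The log2 fold change was -0.37 (standard error 0.09, 95% confidence interval -0.58 to -0.16, adjusted p = 0.0898, edgeR), and Slc29a1 was not called. Slc29a1 has 55.4% GC. With GC and gene length accounted for, the difference of Slc29a1 was -0.28 on the log2 scale (adjusted p = 0.0987, same test). The adjusted p was under 0.05 with DESeq2 (0.0321), without a filter on low counts (0.00987) and with the GC and length correction plus the replicate block (0.0456), where the fold change under 1.5 kept it from a call. Of its exon bases 6.86% lie under the opposite-strand gene Gm17080, and the sources used here do not state whether counting used strand. Slc29a3, which encodes the intracellular transporter ENT3 of lysosomes, had 27.4 to 31.0 CPM W/O IL-10 and 29.6 to 32.9 CPM W/ IL-10 (log2 fold change 0.09, 95% confidence interval -0.12 to 0.30, adjusted p = 0.688, edgeR).

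Entpd1, the gene of CD39 (ENSMUSG00000048120, chromosome 19, 40612366 to 40741602), had 120, 140 and 127 CPM W/O IL-10 and 145, 149 and 143 CPM W/ IL-10. The groups did not overlap, and their nearest values were 140 and 143 CPM. The log2 fold change was 0.18 (95% confidence interval 0.00 to 0.35, adjusted p = 0.333, edgeR). Nt5e, the gene of CD73 (ENSMUSG00000032420, chromosome 9, 88327197 to 88372092), had 67.7 to 79.3 CPM W/O IL-10 and 73.9 to 85.3 CPM W/ IL-10, with overlap (log2 fold change 0.17, 95% confidence interval -0.04 to 0.38, adjusted p = 0.439, edgeR). CD39 and CD73 are known as a pair of enzymes on regulatory T cells, and Foxp3, the defining factor of those cells, had 3 to 26 counts per library. With Ikzf2 and Il2ra, which activated T cells also express, Foxp3 summed to 594 to 660 CPM W/O IL-10 and to 747 to 900 CPM W/ IL-10, none of the 3 called, and their part in the values of Entpd1 and Nt5e was not tested. Ada, which removes adenosine inside the cell (ENSMUSG00000017697, chromosome 2, 163726584 to 163750239, minus strand), had 7.03, 7.74 and 7.58 CPM W/O IL-10 and 9.77, 8.57 and 9.38 CPM W/ IL-10. The groups did not overlap (log2 fold change 0.31, 95% confidence interval 0.02 to 0.60, adjusted p = 0.305, edgeR). None of the 3 enzymes was called, and the upper bounds of their intervals leave room for a fold change of 1.5 for Ada but not for Entpd1 or Nt5e.

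Adora2a, the gene of the A2A receptor (ENSMUSG00000020178, chromosome 10, 75316877 to 75334784), had 79.5, 82.1 and 88.6 CPM W/O IL-10 and 77.7, 85.4 and 91.3 CPM W/ IL-10. The ranges lay on top of each other, and the log2 fold change was 0.02 (95% confidence interval -0.16 to 0.21, adjusted p = 0.923, edgeR). It took either sign, from -0.03 to 0.08, when single libraries were left out.

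P2rx7 (ENSMUSG00000029468, chromosome 5, 122643911 to 122691432) had 22.2, 29.4 and 17.2 CPM W/O IL-10 and 12.8, 15.8 and 13.1 CPM W/ IL-10. The groups did not overlap, but W/O IL-10 replicate 3 was close to W/ IL-10 replicate 2. The log2 fold change was -0.72 (standard error 0.19, 95% confidence interval -1.15 to -0.30), which is 1.65-fold lower W/ IL-10, with an adjusted p of 0.102 from edgeR. The call depended on the libraries: without W/O IL-10 replicate 3 the log2 fold change was -0.90 and P2rx7 was called (adjusted p = 0.0387), and without W/O IL-10 replicate 2 it was -0.51 (adjusted p = 0.236, same test). P2rx7 was also called by DESeq2 (adjusted p = 0.00838), and without replicate 1 of both groups its log2 fold change was -0.70 with an adjusted p of 0.0610 in edgeR.

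P2rx7 is also used by B cells and macrophages, whose markers were low but present. The 4 B cell markers summed to 55.7, 137 and 91.8 CPM W/O IL-10 and to 55.3, 93.9 and 51.5 CPM W/ IL-10, none of them called. Replicate 2 of each group was the highest for both these markers and P2rx7, but replicates 1 and 3 stood in opposite order. For P2rx7 these had 22.2 and 17.2 CPM W/O IL-10 and 12.8 and 13.1 CPM W/ IL-10. The 6 macrophage markers summed to 26.7 to 34.3 CPM W/O IL-10 and 31.1 to 34.4 CPM W/ IL-10, most of it from Cd68. None of the 4 that were tested was called, and Csf1r and Mertk, with 2 to 8 and 0 to 2 counts per library, were not tested. Their part in the result was not tested. In bulk libraries, fewer cells of a type and less RNA per cell cannot be told apart.

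**Figure D3:**
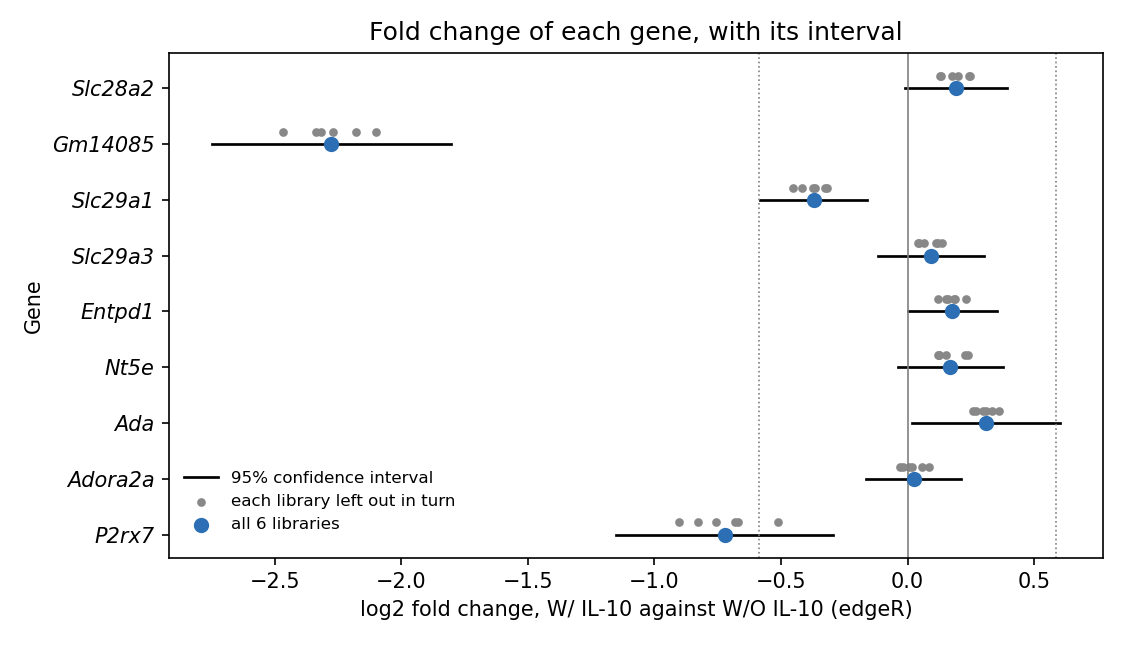
log2 fold change of each gene, W/ IL-10 against W/O IL-10, with all 6 libraries (blue) and its 95% confidence interval (line), and after leaving out 1 library at a time (grey); dotted lines mark a fold change of 1.5. The interval of Gm14085, from -2.75 to -1.80, lies wholly below the dotted line, that of P2rx7 crosses it, and those of Slc28a2, Slc29a3, Nt5e and Adora2a cross zero.

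Levels of different genes were compared per exon length, as RPKM. For Slc28a2 and Gm14085 this length includes what both genes share, 35.4% and 30.3% of their 50-base stretches. How reads on these were counted is not stated, so the RPKM and places of this pair are less certain. W/O IL-10 the order was Adora2a (27.2 ± 1.54 RPKM), Entpd1 (23.1 ± 1.78), Slc28a2 (20.98 ± 1.71), Slc29a1 (16.2 ± 1.56), Nt5e (8.32 ± 0.783), Slc29a3 (4.96 ± 0.315), Gm14085 (3.99 ± 1.03), P2rx7 (3.84 ± 1.02) and Ada (3.72 ± 0.186 RPKM; SD, n = 3). The ranges of neighbours overlapped between Entpd1 and Slc28a2, and each of Slc29a3, Gm14085 and P2rx7 overlapped with the next, so that the order of these neighbours is not resolved. By their means the first 6 held the same places W/ IL-10, where the ranges of Adora2a and Entpd1 and of Entpd1 and Slc28a2 overlapped. Ada came next with 4.61 ± 0.305 RPKM, P2rx7 had 2.33 ± 0.278 and Gm14085 was last with 0.825 ± 0.0993 RPKM (SD, n = 3). The RPKM of Adora2a, averaged over the 6 libraries, lay above 86.9% of the tested genes and that of Gm14085 above 35.0%. W/O IL-10, P2rx7 and Gm14085 varied most between libraries, with an SD of 26.6% and 25.7% of the RPKM mean, and the other 7 genes varied by 5.0 to 9.59%.

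The genes whose log2 CPM across the 6 libraries was most like that of Gm14085 were Parp8 (Pearson's r = 0.998), Ptpn7 (r = 0.997), Cxcr4, Tnfrsf1b and Sft2d2 (each r = 0.995). All 5 had a lower mean CPM W/ IL-10, which follows from picking them for their likeness to a gene that was lower. Of the 5, the chemokine receptor gene Cxcr4 was called (mean 53.0 CPM in the controls, 29.0 CPM with IL-10). The genes most like Slc28a2 were Celsr1 (r = 0.989), Clasp1 (r = 0.983), Klhl20 (r = 0.982), Fam102b (r = 0.982) and Tnfrsf26 (r = 0.981), and Slc28a2 and Gm14085 themselves had r = -0.563. With only 6 libraries in 2 groups, high values were not limited to these genes. Among the 14916 tested genes, 105 had an r of at least 0.95 to Gm14085 and 44 to Slc28a2.

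Further genes of the pathway were taken from 9 lists of 94 genes in all, of which 92 were in the table and 73 were tested. Of the 73, 4 were called, which is 5.48% against the 1.45% of all tested genes given above. The lists were chosen with earlier results of these data known, so no more can be read from this share. With each library left out, 0 to 3 of the 73 were called. Bst1, Cd38 and P2ry14 were called higher W/ IL-10 and P2rx4 was called lower. The median log2 fold change of the 73 was 0.04. In 17 of the 73 (23.3%) the groups did not overlap, close to the share of all tested genes.

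**Figure D4:**
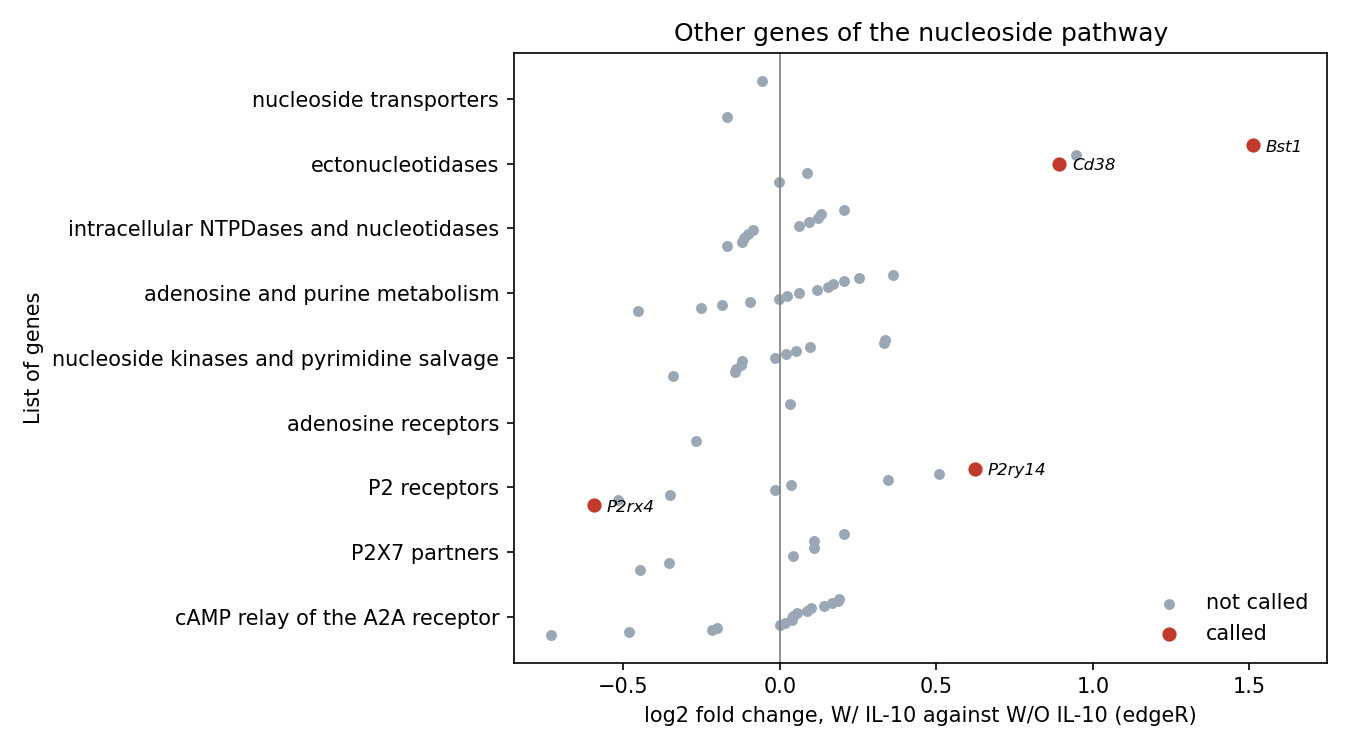
log2 fold change, W/ IL-10 against W/O IL-10, of the 73 tested genes of the 9 pathway lists, 1 row of points per list, sorted within it; red points are called and named. Bst1 (1.51), Cd38 (0.89) and P2ry14 (0.62) stand to the right and P2rx4 (-0.59) to the left, and most other points lie close to zero.

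In the list of ectonucleotidases 2 of 5 tested genes were called (40%), against 1.45% of all tested genes. In a list of this size the share says little. Both were higher W/ IL-10, and both act on NAD rather than on ATP or AMP. Cd38 and Bst1 (CD157) encode related surface enzymes that consume NAD. They are neighbours on chromosome 5, Bst1 from 43818885 to 43843986 and Cd38 from 43868553 to 43912375, with no annotated gene between them. Cd38 had 16.4, 28.3 and 24.3 CPM W/O IL-10 and 45.2, 40.9 and 42.02 CPM W/ IL-10. The change on the log2 scale was 0.89 (standard error 0.17, adjusted p = 0.0405, edgeR). Bst1 had 1.51, 1.74 and 1.85 CPM W/O IL-10 and 4.76, 4.13 and 5.65 CPM W/ IL-10, or 37 to 43 and 93 to 129 counts. For Bst1 the change on the log2 scale was 1.51 (standard error 0.21, adjusted p = 0.0125, edgeR). In neither gene did the groups overlap. Without replicate 1 of both groups both were called, with 0.65 for Cd38 and 1.44 for Bst1.

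Both calls were lost when certain libraries were left out. Cd38 was no longer called without W/O IL-10 replicate 3 (adjusted p = 0.0795) or without W/ IL-10 replicate 1 (0.161), 2 (0.116) or 3 (0.184), and Bst1 without W/O IL-10 replicate 2 (adjusted p = 0.0572) or W/ IL-10 replicate 1 (0.0648) or 3 (0.0981, same edgeR test). Over all fits with 1 library left out, whether called or not, the log2 fold changes were 0.69 to 1.06 for Cd38 and 1.39 to 1.62 for Bst1. CD38 is also found on dendritic cells and NK cells. The 5 dendritic cell markers summed to 31.3 to 34.6 CPM W/O IL-10 and 52.0 to 62.2 CPM W/ IL-10, and most of the difference was Itgax, which was called higher, with 20.4 and 43.2 CPM. The others did not move together: Xcr1 had a mean of 3.89 CPM W/O IL-10 and 5.89 CPM with it, Zbtb46 6.70 and 4.94 CPM, Batf3 1.86 and 1.40 CPM, none of them called, and Flt3, with 0 to 7 counts per library, was not tested. The 4 NK cell markers summed to 547 to 580 CPM W/O IL-10 and 389 to 417 CPM W/ IL-10. Most of it was Eomes, with means of 518 and 364 CPM, so that the sum mainly followed this gene. Eomes was lower in every W/ IL-10 library (log2 fold change -0.51, adjusted p = 0.0176, edgeR), and only its fold change under 1.5 kept it from a call. Ncr1 was called lower (6.53 and 2.95 CPM). Klrb1c had a lower mean W/ IL-10 (32.9 and 27.4 CPM) and Klra8 a higher one (4.06 and 5.27 CPM), both with overlap and not called. Their part in the result was not tested. Acpp, which encodes a phosphatase that can also turn AMP into adenosine, had 47.1 ± 4.71 CPM W/O IL-10 and 47.0 ± 3.84 CPM W/ IL-10 (SD, n = 3; adjusted p = 0.997, edgeR). Enpp1 and Entpd3, the latter with 2 to 15 counts per library, were not called either.

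Of the P2 receptors, 8 were tested. P2rx4, an ATP-gated channel related to P2rx7, lies beside it on chromosome 5, from 122707544 to 122729738, with 16111 bases and 1 annotated gene between them. It had 34.03, 35.2 and 30.7 CPM W/O IL-10 and 19.9, 25.98 and 20.2 CPM W/ IL-10, without overlap. P2rx4 fell by 0.59 on the log2 scale (standard error 0.12, adjusted p = 0.0467, edgeR), so that both neighbouring channel genes were lower in every W/ IL-10 library. P2ry14, a receptor for UDP-sugars, had 15.1, 18.9 and 19.9 CPM W/O IL-10 and 26.7, 29.7 and 26.7 CPM W/ IL-10. It rose by 0.62 on the log2 scale (standard error 0.12, adjusted p = 0.0410, edgeR). Its neighbour on chromosome 3, P2ry13, a receptor for ADP, had 4.22 ± 0.332 CPM W/O IL-10 and 6.01 ± 0.776 CPM (SD, n = 3) with it. The difference of 0.51 on the log2 scale was not called (adjusted p = 0.201, same test). P2ry13 and the pairing of neighbours were picked after their values were seen.

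P2rx4 and P2ry14 were close to the threshold. P2rx4 was not called without W/O IL-10 replicate 2 (adjusted p = 0.153) or 3 (0.0665) or W/ IL-10 replicate 1 (0.176) or 3 (0.225). P2ry14 was not called with any 1 library left out, with an adjusted p of up to 0.173, and without W/O IL-10 replicate 1 its fold change was under 1.5 (log2 fold change 0.50). Corrected for GC and gene length, both had a fold change under 1.5 (adjusted p = 0.0320 and 0.0229, edgeR), as they had without replicate 1 of both groups (adjusted p = 0.0249 and 0.00987, same test). Among the abundant genes of this list, P2ry10, whose product is better known as a receptor for lysophospholipids, had a mean of 169 CPM W/O IL-10 and 173 CPM with it, P2ry12 13.1 CPM and 12.9 CPM, and neither was called.

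**Figure D5:**
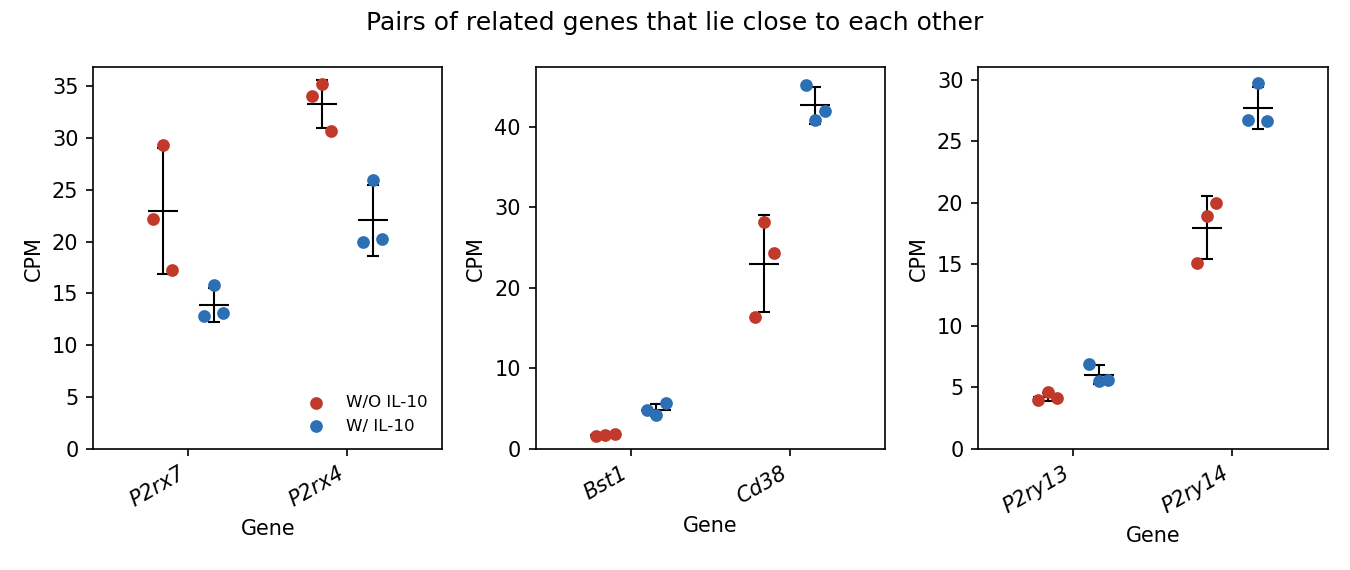
CPM per library of 3 pairs of related genes that lie close to each other, W/O IL-10 in red and W/ IL-10 in blue, with the mean and SD of 3 libraries in black. Within each pair both genes are shifted the same way between the groups, P2rx7 and P2rx4 downwards and the other 4 genes upwards; P2rx7 and P2ry13 were not called.

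The other 7 lists held no called gene. With 1.45% of all tested genes called, lists of this size would hold few or none. Of the remaining nucleoside transporters, Slc29a2 and Slc29a4 had 3.66 and 3.35 CPM W/O IL-10 and 3.53 and 2.97 CPM W/ IL-10, and Slc28a1 and Slc28a3, the relatives of Slc28a2 elsewhere in the genome, had at most 4 counts in a library. Of the other adenosine receptors, Adora2b and Adora3 had 2.59 and 2.94 CPM W/O IL-10, whereas Adora1 had at most 4 counts. Per length, Adora2b had 1.42 RPKM over the 6 libraries against 27.5 RPKM for Adora2a.

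Of the 16 tested genes of the cAMP relay by which the A2A receptor signals, none was called. The most abundant were Prkar1a, the regulatory subunit of protein kinase A (log2 fold change 0.17, adjusted p = 0.394), the adenylate cyclase gene Adcy7 (0.04, adjusted p = 0.869) and the catalytic subunit Prkacb (0.05, adjusted p = 0.774, edgeR). Among partners of P2X7, Art2b, which can gate the channel in mouse T cells using NAD, had 12.7 and 9.97 CPM W/O and W/ IL-10 (adjusted p = 0.403), and the sheddases Adam10 and Adam17 and the channel gene Panx1 were not called.

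None of the 13 tested genes of adenosine and purine metabolism was called, with Hprt (log2 fold change 0.25, adjusted p = 0.309), Aprt (0.00, adjusted p = 0.990) and Xdh (0.12, adjusted p = 0.590, edgeR) the most abundant. The same held for the 11 genes of nucleoside kinases and pyrimidine salvage, led by Samhd1, Uck1 and Dck, and for the 10 intracellular NTPDases and nucleotidases, led by Nt5c, Nt5dc1 and Nt5c3b. Adk, which phosphorylates adenosine taken up by the cell, had 23.5 CPM W/O IL-10 and 23.9 CPM W/ IL-10 (adjusted p = 0.962, edgeR).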

How the data were processed

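The deposited table holds raw read counts per Ensembl gene for 6 libraries, which the authors did not normalize. The submitters' processing notes name HISAT2, HTSeq and GRCm38, without versions, whereas the methods of the paper name TopHat, Cufflinks and UCSC annotation, and the library kit also differs (TruSeq in the labels, NEBNext in the paper). How multi-mapped reads and strand were treated is not given in the sources used here.

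Counts were TMM-scaled and tested in edgeR 4.0.16 (R 4.3.3) with glmQLFit and glmQLFTest over the 14916 genes that reached 10 counts in 3 or more libraries, without a block, and Benjamini-Hochberg adjustment covered all of them. Fold changes were not shrunken. CPM used TMM-scaled library sizes, RPKM also the summed exon length of GENCODE M21 (GRCm38), in which 29332 of 29393 identifiers were found. No pair of libraries agreed within sampling noise. Alternatives were DESeq2 1.42.0, limma-voom (limma 3.58.1), upper-quartile factors, other count filters, the replicate number as a block, offsets from splines on GC content and length, the sum of Slc28a2 and Gm14085, and each library left out. Leaving out replicate 1 of both groups was added after seeing the data. The main fit and the alternatives in tool, scaling, count filter, block and offsets were also run on simulated counts. The fit without a filter on low counts was left out of this. The summed pair, the fits with libraries left out, the correlations and the sequence comparisons were not simulated.

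The genes and lists were chosen with earlier results of these data known. Named are all 9 genes, called genes of the pathway lists, the 3 genes of highest mean RPKM in each list, and the 5 genes most correlated with Slc28a2 and with Gm14085 (log2 CPM, prior count 2). Adk, Art2b, P2ry13, Enpp1, Entpd3 and the marker genes named were added to these. Sequences come from RefSeq promoter windows (GRCm38.p6) and GENCODE transcripts, compared in Python 3.11.15 with Biopython 1.88.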

Additional observations from a re-analysis of the deposited data

How the results depend on the processing

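Gm14085 was called under every alternative that kept it as a gene of its own, and Slc28a2 and the sum of both under none. For the sum this was no test of Gm14085, which held a mean of 18.2% of the pair's reads W/O IL-10. Even the full loss of such a share would leave the sum short of the fold change set for a call. Summed into 1 feature with Slc28a2, Gm14085 has no call of its own (log2 fold change -0.044, adjusted p = 0.879, edgeR). Of the 9 genes 2 were called, with P2rx7 as the other, by DESeq2, without a filter on low counts and with the GC and length correction together with the replicate block, and 1 to 2 with each library left out. Of the other pathway genes 2 were called with the GC and length correction, 2 when the replicate block was added to it, 2 without replicate 1 of both groups, and 0 to 3 with each library left out (edgeR), against 4 with all libraries. Among all tested genes, DESeq2 called 359, against 217 in edgeR. The number was larger without a filter (639) and with the correction and the replicate block (354). With single libraries left out the number was 35 to 254, lowest without W/ IL-10 replicate 3 (35), replicate 1 (57) and replicate 2 (98) and without W/O IL-10 replicate 2 (75), and 267 genes were called without replicate 1 of both groups, which was chosen after seeing the data.

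Same-numbered libraries are not stated to belong together. Their deviations from the group means correlated by 0.0524, -0.0573 and 0.114, and 4 of 6 libraries correlated best with their own number. With the replicate block alone, 196 genes were called in all, 1 of the 9 genes and 3 of the pathway genes, Cd38 missing the threshold (adjusted p = 0.0527, edgeR). At this depth, genes with few counts such as Slc28a1 and Adora1 could not be compared.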
